A study of Homo sapiens with 47 samples.

Results

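Across the genome of Ishikawa cells, 717 regions carried RNA polymerase II (RNAPII) away from any annotated promoter and almost without acetylation of lysine 27 of histone H3 (H3K27ac), and 530 of them (73.9%) lay at the 3' end of a gene. The regions were found by merging the RNAPII peaks of 20 libraries wherever they shared at least 1 bp, which gave 60739 intervals. Of these, 14511 held a peak in at least 14 of the 20 libraries and are called recurrent, 1646 of the recurrent intervals lay more than 2 kb from every GENCODE transcription start, and 717 of those 1646 overlapped an H3K27ac peak in at most 1 of 20 H3K27ac libraries. These 717 intervals are called members. They were thus chosen by measured values, the presence of RNAPII peaks and the absence of H3K27ac peaks, which are described below but not tested. The remaining 929 non-promoter intervals, which overlapped H3K27ac peaks in 2 or more libraries, and 969 recurrent promoter intervals without H3K27ac are used for comparison.

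The measurements were chromatin immunoprecipitations followed by sequencing in Ishikawa, a human endometrial adenocarcinoma cell line, and the study used them to follow synthetic activators that were brought to estrogen receptor binding sites (ERBSs). All cells were kept in hormone-depleted medium without added estrogen, transfected with a plasmid for an HA-tagged, catalytically dead Cas9 (dCas9) fusion together with pooled guide RNA (gRNA) plasmids, and selected for both plasmids with puromycin and G418. The fusion was either dCas9-VP16(10x), which carries copies of the VP16 activation domain, or dCas9-p300(core), which carries the acetyltransferase core of p300, and the gRNAs were those of Pool 1, Pool 2 or Pool 3 (each directed at 1 ERBS near each of MMP17, CISH, FHL2 and HES2), the Adjacent pool (regions beside the ERBSs of MMP17, CISH and FHL2) or the promoter of IL1RN, which served as control. RNAPII and H3K27ac each had 2 libraries for each of the 5 gRNA pools of each of the 2 fusions, and HA had 7 libraries, of which those named ERBS received Pools 1, 2 and 3 together. The H3K27ac library of dCas9-VP16(10x) Adjacent replicate 1 is labelled as carrying the IL1RN gRNAs too. The label of the HA IL1RN library names no fusion, and the library is taken here as dCas9-VP16(10x). The paper describes HA ChIP-seq of that fusion at the IL1RN promoter. There was no untransfected sample, so every library came from cells that expressed a fusion.

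RNAPII transcribes past the end of the gene: the nascent transcript is cleaved at the polyadenylation site, and the polymerase slows and is released downstream of it, so that the regions behind gene ends are among the known places of RNAPII accumulation outside promoters. H3K27ac is laid down by acetyltransferases such as p300 and CBP and is known as a mark of active promoters and enhancers rather than of transcribed gene bodies or gene ends. An RNAPII peak without it is therefore a different kind of site from an acetylated enhancer in textbook terms. These statements are background and were not tested here.

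Reference sequence of 200 bases around the summit is shown for 5 members, which are among the most enriched of their class with a peak in all 20 libraries and whose windows lie outside untranslated regions, as examples of the sequence under the strongest summits. The summit is the median of the summits in the single libraries, coordinates are on hg19, and capitals mark each CG dinucleotide. The windows are DNAJB1 (3' end, chr19:14623677-14623876, minus strand), TAF4 (intron, chr20:60552095-60552294, minus strand), GOSR2 site 1 (intron, chr17:45022342-45022541, plus strand), the intergenic site near SND1 (chr7:127743702-127743901, plus strand) and the intergenic site near VHLL (chr1:156271594-156271793, plus strand). Members in or behind a gene are printed on the strand of that gene, and a site number marks the order along the chromosome where a gene has several members.
DNAJB1: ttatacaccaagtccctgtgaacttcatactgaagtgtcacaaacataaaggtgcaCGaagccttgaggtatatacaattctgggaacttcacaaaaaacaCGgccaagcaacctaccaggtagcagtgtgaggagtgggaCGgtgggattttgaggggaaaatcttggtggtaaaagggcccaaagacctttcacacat
TAF4: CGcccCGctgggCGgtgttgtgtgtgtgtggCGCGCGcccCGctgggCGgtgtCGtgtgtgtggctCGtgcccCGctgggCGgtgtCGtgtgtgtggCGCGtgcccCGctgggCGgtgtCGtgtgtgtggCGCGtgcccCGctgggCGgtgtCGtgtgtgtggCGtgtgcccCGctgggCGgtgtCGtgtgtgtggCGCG
GOSR2 site 1: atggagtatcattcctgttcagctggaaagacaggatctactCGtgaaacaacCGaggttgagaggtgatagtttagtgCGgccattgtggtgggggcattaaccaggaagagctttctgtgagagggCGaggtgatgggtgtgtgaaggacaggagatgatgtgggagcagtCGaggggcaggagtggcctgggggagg
near SND1: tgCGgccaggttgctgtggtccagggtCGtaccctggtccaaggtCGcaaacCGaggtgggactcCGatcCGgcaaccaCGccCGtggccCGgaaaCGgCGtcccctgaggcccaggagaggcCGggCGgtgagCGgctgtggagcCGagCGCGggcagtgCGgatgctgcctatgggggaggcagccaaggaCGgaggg
near VHLL: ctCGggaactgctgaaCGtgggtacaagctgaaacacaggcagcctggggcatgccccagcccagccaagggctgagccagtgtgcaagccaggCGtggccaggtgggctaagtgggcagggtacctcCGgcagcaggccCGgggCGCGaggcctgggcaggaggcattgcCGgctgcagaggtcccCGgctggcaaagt
The DNAJB1 window held 3 CG dinucleotides, at a GC content of 45.5%. The TAF4 window held 29 at a GC content of 75%, and 90.4% of its bases were identical to the base 33 positions further on, so it was a tandem repeat. The GOSR2 window held 5 CG dinucleotides at a GC content of 54.5%, close to DNAJB1. The window near SND1 held 19 CG dinucleotides and that near VHLL held 9.

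The members were poor in CpG as a group. In the 300 bases around the summit, the median ratio of observed to expected CpG was 0.312 (interquartile range 0.203 to 0.429) in the 717 members, against 0.832 over all 14511 recurrent intervals and 0.621 in the 929 non-promoter intervals with H3K27ac. Promoters without H3K27ac were similarly low, at 0.328. The median GC content was 58.7% in the members and 68.3% over all recurrent intervals. The 3 classes of members had similar composition, with median CpG ratios of 0.296 at 3' ends, 0.353 in gene bodies and 0.29 between genes. Regions were not treated as replicates, so these medians carry no test.

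Motifs were searched as plain letters on both strands of the same 300 bases. AATAAA, the core of the polyadenylation signal, was found in 81 members (11.3%), against 4.07% of all recurrent intervals and 4.09% of the non-promoter intervals with H3K27ac. In the 530 3' end members it stood on the strand of the gene in 37 (6.98%) and on the opposite strand in 24 (4.53%). TGANTCA, the AP-1 site, was found in 67 members (9.34%), against 4.62% of all recurrent intervals and 13.7% of the non-promoter intervals with H3K27ac. The palindromic estrogen response element, a CTCF core motif and the B box of tRNA genes had 0 matches in the members and were found in 0.0345%, 0.138% and 0.241% of all recurrent intervals. At these rates few matches would be expected in 717 windows, and no match says only that these letters were not in the windows. Overlaps between motifs were not removed, and the lower GC content of the members stands beside the AATAAA share, whose relation to it was not tested.

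The members fell mainly behind genes. Beside the 530 members that reached into the window from 1 kb before to 5 kb after an annotated gene end, 153 (21.3%) lay in gene bodies and 34 (4.74%) between genes. Among the 929 non-promoter intervals with H3K27ac the same classes held 345 (37.1%), 336 (36.2%) and 248 (26.7%). The gene of a 3' end member was protein-coding in 490 cases and a long noncoding RNA in 31. The share at 3' ends depends on the window: it was 51.7% with a window from 0.5 kb before to 2 kb after the end and 86.1% with one reaching 10 kb.

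The summit of a 3' end member stood at a median of 1780 bp downstream of the gene end, with an interquartile range of 581.5 to 3306 bp. It was downstream of the end in 443 of 530 members (83.6%), and the interval itself covered the end in 118. By distance, 96 summits lay within 1 kb downstream, 105 between 1 and 2 kb, 84 between 2 and 3 kb and 123 between 3 and 5 kb. Most of the window that defines the class lies downstream of the gene end, so a high downstream share follows in part from the window and is no finding. The 3' end intervals with H3K27ac had a median of 2161 bp and were downstream in 79.7%.

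**Figure D1:**
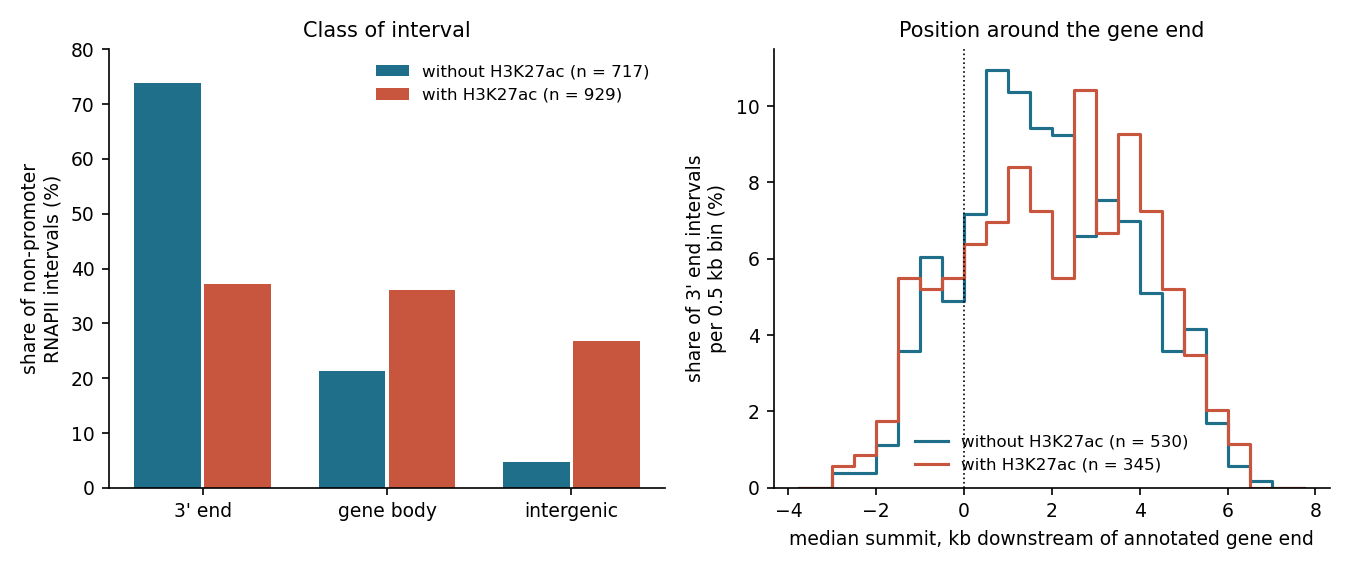
Left, share (%) of the 717 members (blue) and of the 929 non-promoter RNAPII intervals with H3K27ac (red) in each class of position. Right, distance in kb of the median summit from the annotated gene end for the 530 and 345 intervals at 3' ends, as a share (%) in bins of 0.5 kb, with the gene end at the dotted line. Members at 3' ends make up 73.9%, and the bins with most of their summits lie within the first 3 kb downstream.

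Gene body members lay mostly late in their genes as annotated. The median position was 67.1% of the way from start to end, with 26 members in the first, 49 in the middle and 78 in the last of 3 equal parts of the gene, and 75 of 153 were within 10 kb of the gene end. Their summits were intronic in 118, in coding or noncoding exons in 22 and in untranslated regions in 13. Of the 34 intergenic members, 28 had their nearest protein-coding gene end on its downstream side and 25 were within 20 kb downstream of it.

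Members were broader and weaker than recurrent intervals at large, as measured by the fold enrichment of the strongest peak in each library (the ratio in the deposited peak lists), averaged as a geometric mean over the libraries with a peak. The median enrichment was 11.4 (interquartile range 10.3 to 13.1) in the members, 14.6 over all recurrent intervals and 12.2 in the non-promoter intervals with H3K27ac. The median width was 1596 bp, against 1284 bp over all recurrent intervals. Only 111 members (15.5%) held a peak in all 20 RNAPII libraries, against 59.1% of all recurrent intervals. Promoters without H3K27ac were similar, with a median enrichment of 11.6, a median width of 1815 bp and 21.9% in all 20 libraries. Width and number of libraries are tied to the way the intervals were merged and chosen, so they are given as a description.

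At the limits of the rule, 142 members held peaks in exactly 14 libraries with a median enrichment of 10.6, and 166 intervals that otherwise qualified held them in 13, with a median of 10.2. An H3K27ac peak was absent from all 20 libraries in 602 members and present in 1 library in 115, of which 64 came from dCas9-p300(core) Adjacent replicate 1 and 37 from dCas9-VP16(10x) Adjacent replicate 2. A further 69 non-promoter intervals overlapped H3K27ac peaks in 2 libraries. The H3K27ac libraries differed widely, from 1805 to 32052 peaks, and with only the 10 largest of them the rule gave 725 intervals, which included all 717 members. The member nearest to a transcription start was 2018 bp from it, 83 members were within 2.5 kb, and 99 intervals that met the other conditions were excluded at 1.5 to 2 kb.

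The RNAPII libraries held 16041 to 40757 peaks, and the epithelial markers EPCAM, KRT8, KRT18, KRT19, CDH1 and PAX8 had an RNAPII peak within 2 kb of a start in all 20 of them. Of the markers of blood, endothelium, muscle and fibroblasts, MYH11 had one in 5 libraries and PTPRC, CD3E, PECAM1, CDH5, DES, COL1A2 and DCN in 0. Read depth is not part of the peak lists, and the number of peaks stands in for it here. A member had a peak in 44.9% to 99.2% of cases in the dCas9-VP16(10x) libraries and in 67.5% to 96.4% in the dCas9-p300(core) libraries. dCas9-VP16(10x) Pool 2 replicate 1, with 44.9% of members and 75.1% of recurrent intervals, and dCas9-p300(core) IL1RN replicate 1, with 75.5% of members and 75.4% of recurrent intervals, held peaks at the fewest recurrent intervals.

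Among members with a peak in all 20 libraries, the most enriched 3' end members stood mainly behind genes for protein folding. DNAJB1, which encodes an HSP40 co-chaperone, had the highest 3' end member (chromosome 19, 14619981 to 14625823), with a geometric mean enrichment of 31.1. Its enrichment was 10.5, 20.4 and 37.7 at the lowest, median and highest of 10 dCas9-VP16(10x) libraries and 26.5, 46.1 and 78.2 in the 10 dCas9-p300(core) libraries. The ranges overlapped, and on the centred scale used for tests, in which each library is set relative to its own median over the 8574 intervals found in all 20 lists, the constructs differed by -0.35 ± 0.33 (log2, dCas9-VP16(10x) minus dCas9-p300(core), SE; limma adjusted p = 0.462).

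HSPA5, which encodes the endoplasmic reticulum chaperone BiP, followed with 30.3, and after centring it stood higher in dCas9-VP16(10x) by 0.86 ± 0.31 (log2, SE), which missed the threshold (limma adjusted p = 0.0573). Its values were 16.6, 35.2 and 44.1 in the dCas9-VP16(10x) libraries and 16.4, 30.9 and 52.1 in the dCas9-p300(core) libraries, so the ranges were similar on the deposited scale. Its summit lay inside the gene, in an untranslated region, and the interval also falls in the 3' window of the neighbouring gene RABEPK. HSPD1 site 1, behind the gene of the mitochondrial chaperonin HSP60, reached 25.5, with 11.8, 24.3 and 33.5 in dCas9-VP16(10x) and 14.2, 29.2 and 57.9 in dCas9-p300(core). In each of these the constructs overlapped.

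MYL9 site 2, at the end of the gene of a myosin regulatory light chain, had 22.6, and LMTK3 site 1, which also lies in the 3' window of CYTH2, had 22.2. For MYL9 site 2 the values were 13.5, 21.2 and 30.4 in dCas9-VP16(10x) and 17.5, 23.8 and 36.6 in dCas9-p300(core), and for LMTK3 site 1 they were 13.5, 22 and 29.7 and 18.4, 21.6 and 37.2. Both constructs again covered the same range. None of these 5 members was called between constructs, with limma adjusted p up to 0.556 (HSPD1 site 1).

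In gene bodies, the member in TAF4, which encodes a subunit of the general transcription factor TFIID, was the most enriched of all 717, at 51.4. It is a 1057-bp interval (chromosome 20, 60551655 to 60552711) in an intron, 3777 bp from the nearest transcription start, and it overlapped an H3K27ac peak in 1 library. It was the tandem repeat printed above. Its enrichment was 18.1, 32.8 and 47.7 in the dCas9-VP16(10x) libraries and 48.1, 84.8 and 102 in the dCas9-p300(core) libraries, and these ranges did not overlap on the deposited scale but did so after centring, where the difference was -0.52 ± 0.19 (log2, SE; limma adjusted p = 0.059). The authors kept only reads that aligned at 1 place, and the part of the repeat in this value was not tested. A 200-base window with at least 80% identity to itself at a shift of 10 to 100 bases was found in 3 members (0.418%) and in 8 of all recurrent intervals (0.0551%).

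The other gene body members with a peak in all 20 libraries were weaker. COX19 site 1, in a gene for copper delivery to cytochrome c oxidase, had 19.8, with 9.33, 14.4 and 20.8 in dCas9-VP16(10x) and 14.01, 32.4 and 44.7 in dCas9-p300(core). GOSR2 site 1, in a gene of a Golgi SNARE protein, had 19.1, with 8.21, 16.1 and 20.04 against 19.6, 22.96 and 34.7. In these 2 members the dCas9-p300(core) libraries were mostly the higher ones on the deposited scale, yet neither was called after centring (limma adjusted p = 0.0912 and 0.934). ZRANB2-AS1, a long noncoding RNA gene, had 16.6 and DIDO1 site 1 had 14.8. HS6ST1, in a gene for heparan sulfate 6-O-sulfotransferase, had 16.1 with 10.99, 15.5 and 21.8 against 10.5, 16.5 and 34.4, and was higher in dCas9-VP16(10x) by 0.64 ± 0.21 after centring (limma adjusted p = 0.0376).

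Between genes, the site near SND1, 11141 bp behind the end of that gene (chromosome 7, 127740331 to 127745041), was the most enriched at 23.3. Its values were 10.4, 13.8 and 22.97 in dCas9-VP16(10x) and 17.4, 34.8 and 69.1 in dCas9-p300(core). The site near VHLL (20.8; chromosome 1, 156271143 to 156272685) had 8.11, 15.1 and 19 against 16.8, 28.5 and 52.1, and lay 2045 bp from a transcription start, just beyond the limit of the rule. In both the medians of dCas9-p300(core) were the higher and the ranges overlapped. The sites near LRFN3 (14.1) and DLG1 (11.4) also held a peak in all 20 libraries, and those near AZIN1 (15.03) and OSBPL10 (10.5) in 19. After centring, those near LRFN3, DLG1 and OSBPL10 were higher in dCas9-VP16(10x) by 0.53 ± 0.12, 0.94 ± 0.19 and 0.99 ± 0.21 (log2, SE; limma adjusted p = 0.00857, 0.00583 and 0.00786), while the ranges of the constructs overlapped. The deposited medians were 13.7 in dCas9-VP16(10x) and 17.3 in dCas9-p300(core) near LRFN3, 13.8 and 10.3 near DLG1, and 13.2 and 9.06 near OSBPL10, so near LRFN3 the direction turned with the centring.

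**Figure D2:**
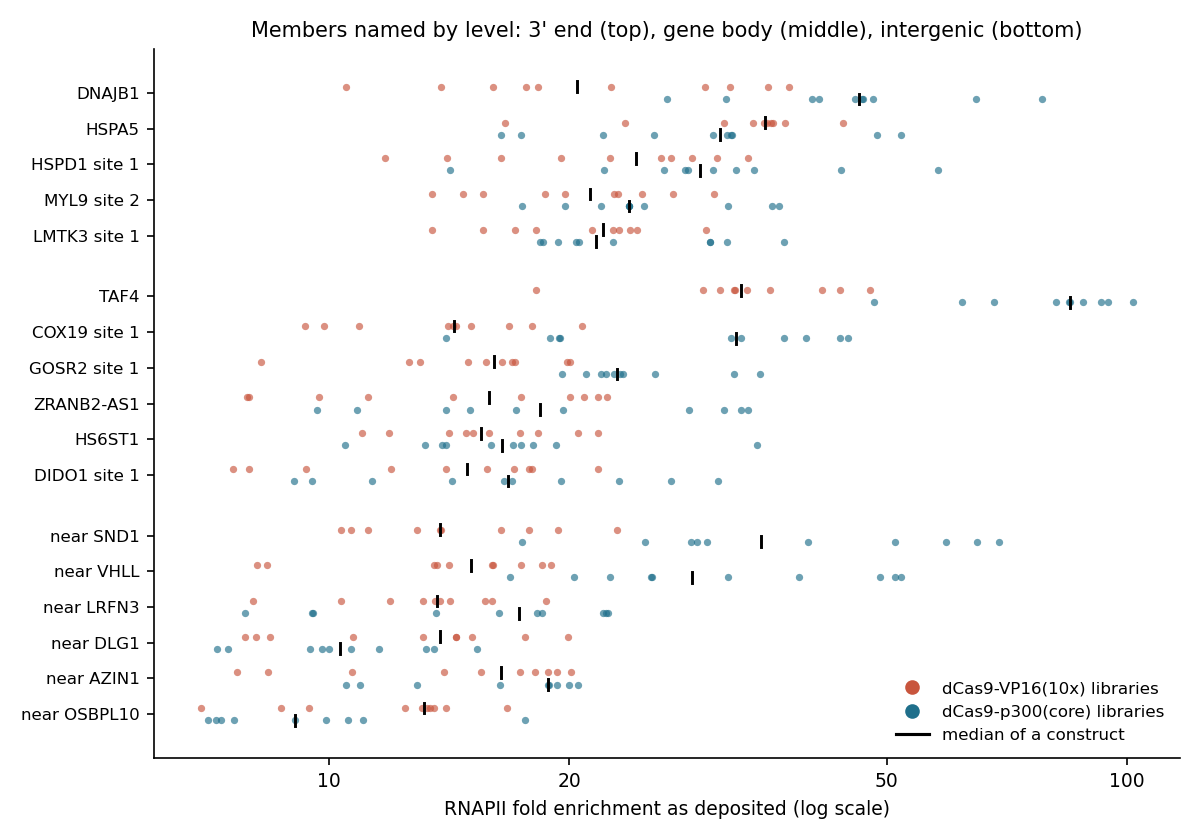
RNAPII fold enrichment as deposited (log scale) in each library for the members of each class named by the highest enrichment among those present in most libraries (5 at 3' ends, 6 in each of the other classes), 3' end at the top, gene body in the middle and intergenic at the bottom; dCas9-VP16(10x) libraries are red, dCas9-p300(core) libraries blue, and the black bar is the median of a construct (8 to 10 libraries with a peak). TAF4 is the highest, and its constructs do not overlap on this scale.

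Members mostly had a lower RNAPII enrichment than the promoter of the same gene. The promoter value is the highest among the recurrent intervals within 2 kb of any start of the gene. Where there are several, this favours the promoter, and such an interval may also belong to a neighbouring gene. Of the 456 protein-coding 3' end members whose host gene had a recurrent promoter interval, 63 (13.8%) exceeded it, and the median ratio of member to promoter enrichment was 0.633 (interquartile range 0.476 to 0.818). For gene body members it was 0.563, with 9 of 121 above the promoter. DNAJB1 had 31.1 at its end and 41.0 at its promoter, and HSPA5 had 30.3 and 43.3. LMTK3 site 1 (22.2 against 12.8), MYL9 site 2 (22.6 against 15.1) and TAF4 (51.4 against 33.7) were above their promoters.

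The host genes of members had RNAPII at a promoter more often than genes at large. They were found through RNAPII in the same libraries, so a higher RNAPII share follows in part from the rule and is no finding. Of 440 protein-coding hosts of 3' end members, 409 (93.0%) had a recurrent RNAPII interval within 2 kb of a start and 248 (56.4%) had an H3K27ac peak there in at least 14 of 20 libraries. Of 115 hosts of gene body members the shares were 87.0% and 45.2%, and of all 20163 protein-coding genes 59.2% and 21.6%. The median promoter enrichment of the hosts was 18.5 for 3' end members and 21.2 for gene body members, against 16.4 over 11939 genes with such an interval. The H3K27ac that was missing at the members was often present at the promoter of the same gene.

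Among lists of genes, chaperones held members most often. Of 15 heat shock and chaperone genes, 5 (33.3%) had a member, namely DNAJB1, HSPA5, HSPD1, HSPE1 and PDIA4, against 640 of 20136 protein-coding symbols (3.18%). HSPD1 and HSPE1 are neighbours that are transcribed in opposite directions from a shared promoter region. Of 19 splicing factors and hnRNP genes, 4 had one (SRSF3, SRSF6, HNRNPA2B1 and DDX17). Of 77 cytosolic ribosomal protein genes, 14 (18.2%) had one, among them RPL13, RPL15, RPL18, RPL19, RPL24, RPL29, RPL37, RPL37A, RPLP2, RPS10, RPS14, RPS24 and RPS29. RPL15 and RPL18 share theirs with the overlapping genes NKIRAS1 and SPACA4, so that the gene of origin is uncertain there. In the cytoskeleton list 2 of 14 genes (FLNA and MYH9) and in glycolysis 1 of 14 (PGAM1) had a member. None was found in 12 translation factors, 12 keratin and junction genes, 12 immediate early genes or 5 ATP synthase genes. The long noncoding RNAs MALAT1 and NEAT1 had none either. All 12 genes of each of the first 3 lists had a recurrent RNAPII interval at a promoter. Among genes with such an interval at the promoter, 4.83% of protein-coding symbols, 35.7% of the chaperone list and 18.4% of the ribosomal list had a member. These are counts with no test. The rule leaves out every interval within 2 kb of any annotated start. A gene whose end lies that close to a start can therefore hardly hold a member there. Gene length and the number of annotated starts were not taken into account. The lists without a member therefore say nothing about RNAPII at the ends of their genes, and the shares of the lists cannot be compared on that point.

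Some genes held several members. SESN2, which encodes a stress-induced leucine sensor upstream of mTORC1, held 5 between 28598580 and 28616605 on chromosome 1, of which 3 lay in the gene body and 2 at the 3' end, with enrichments from 7.94 to 13.3. BTBD9 held 4, all at its 3' end (11.7 to 12.8), and DIDO1 held 4 in its gene body (10.3 to 14.8). HSPA9, the gene of mitochondrial HSP70, held 3 (10.0 to 15.6), as did 11 other genes. In all, 498 genes held 1 member, 66 held 2, 12 held 3, 3 held 4 and 1 held 5. Sites of 1 gene were separate intervals on the same transcription unit and are not independent of one another.

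The distance of members from the transcription starts of the targeted genes is given here; the distance to the gRNA sites themselves was not measured. The nearest to the start of MMP17 was a gene body member of SFSWAP at 90.9 kb, the nearest to HES2 was the 3' end member of DNAJC11 at 208 kb, and the nearest to CISH was a 3' end member of an unnamed gene at 769 kb. For FHL2 (ACTR1B, 7785 kb) and IL1RN (HS6ST1, 15161 kb) no member was in the neighbourhood.

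HA peaks, which the rule had not used, met the members less often than the comparison sets in the libraries taken as dCas9-VP16(10x). Still, 112 members overlapped an HA peak in at least 1 HA library. For all recurrent intervals the shares are given by single library only. Whether these peaks mark binding of the fusion was not tested. Of 717 members, 97 (13.5%) overlapped an HA peak in the HA library with most peaks (dCas9-VP16(10x) ERBS replicate 2, 30740 peaks), where 86.4% of all recurrent intervals and 88.9% of the non-promoter intervals with H3K27ac did so. In dCas9-VP16(10x) Adjacent replicate 2 the shares were 10.2%, 84.2% and 83.6%. In the 3 smaller dCas9-VP16(10x) libraries, ERBS replicate 1, IL1RN and Adjacent replicate 1, which held 4783 to 8148 peaks, 7, 12 and 6 members were overlapped (0.976%, 1.67% and 0.837%), against 31.5%, 43.99% and 25.7% of all recurrent intervals. In the 2 dCas9-p300(core) libraries, with 154 and 141 peaks in all, 0 members were overlapped. Of all recurrent intervals 0.0207% and 0.655% were, so these short lists say little about the members. The order was the same in each of the 5 libraries taken as dCas9-VP16(10x), of which IL1RN names no fusion in its label. The members had the lowest share, promoters without H3K27ac came next, at 2.48% to 20.4%, and the sets with H3K27ac were far above both.

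**Figure D3:**
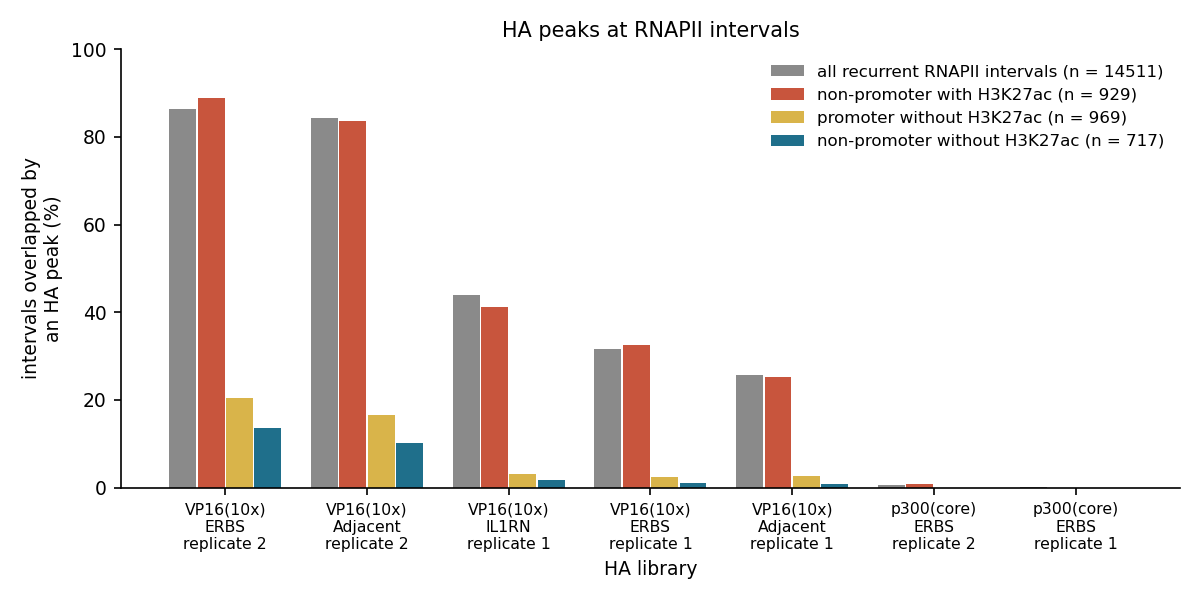
Share (%) of intervals overlapped by an HA peak in each of the 7 HA libraries, for all recurrent RNAPII intervals (grey), non-promoter intervals with H3K27ac (red), promoters without H3K27ac (yellow) and the 717 members (blue). The members have the lowest share in all 5 libraries taken as dCas9-VP16(10x), at most 13.5%.

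Over the 7 HA libraries, 605 members had no HA peak in any, 53 had one in 1 library and 45 in 2. With a minimum of 20 on the -log10 q-value of the HA peaks, 56 rather than 112 members had one in at least 1 library. The 3 members with an HA peak in all 5 dCas9-VP16(10x) libraries were the 3' end sites of CYP2W1 (enrichment 7.96) and ATP11A (10.5) and the site near LRFN3 (14.1), and they were named after their values were seen. These libraries include the IL1RN control, whose label names no fusion. Whether a low HA share follows from the weaker RNAPII enrichment of the members was not tested.

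Between the constructs, members stood higher in dCas9-VP16(10x) than in dCas9-p300(core) relative to the common intervals of each library, but only on that relative scale. The median difference was 0.40 (log2, dCas9-VP16(10x) minus dCas9-p300(core)) over the 437 members that could be tested, against 0.01 over all 12961 tested intervals. By limma with Benjamini-Hochberg adjustment over all intervals, 116 of the 437 members (26.5%) were called at an adjusted p under 0.05, against 21.7% of all intervals. Of these, 111 were higher in dCas9-VP16(10x) (25.4% of the tested members, against 13.3% of all intervals) and 5 were lower (1.14%, against 8.47%). Promoters without H3K27ac were close to the members: 172 of 648 tested (26.5%) were called, 24.5% higher and 2.01% lower, with a median of 0.36. Of the non-promoter intervals with H3K27ac, 28.6% were called, 20.8% higher and 7.83% lower, with a median of 0.12. Without centring of the libraries the direction turned: the median of all intervals was -0.71 and that of the members -0.27, and 3 of the called members were higher and 120 lower in dCas9-VP16(10x). The count of 116 also rested on single libraries, from 55 without dCas9-VP16(10x) Pool 3 replicate 1 to 207 without dCas9-p300(core) IL1RN replicate 1.

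The fusion and an identifier in the peak names cannot be told apart. All 10 dCas9-p300(core) RNAPII libraries carry 1 identifier in their peak names, 7 dCas9-VP16(10x) libraries carry another, and the other 3 carry none. The sources used here do not say what the identifier stands for. No identifier is shared by RNAPII libraries of both constructs, so it could not be entered as a term. The labels of all dCas9-VP16(10x) RNAPII libraries also carry the word stringent, and those of the dCas9-p300(core) RNAPII libraries do not. The sources used here do not explain the word, and whatever it stands for cannot be told apart from the fusion either. The dCas9-p300(core) libraries had the higher enrichment, with medians of 11.5 to 34.2 over the intervals common to all 20 lists against 9.04 to 16.9 for dCas9-VP16(10x). Over the members the medians lay much closer, at 11.2 to 16.3 and 8.45 to 11.7. Within a construct, too, the members moved against the common intervals: between the 2 libraries of a group their median shift was 0.03 to 1.72 on the log2 scale, and it was largest in dCas9-p300(core) IL1RN. These shifts are absolute values between 2 single libraries. The median difference of 0.40 between constructs rests on 10 libraries of each, so it cannot be set directly against them.

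**Figure D4:**
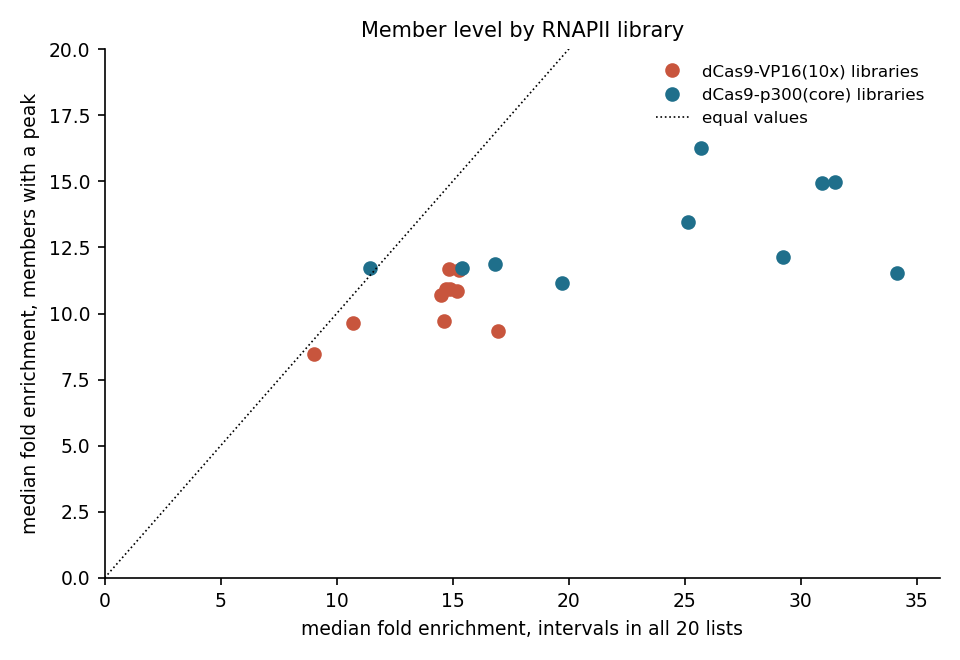
Median RNAPII fold enrichment of the members with a peak (vertical axis) against the median over the 8574 intervals present in all 20 lists (horizontal axis), 1 point for each of 10 dCas9-VP16(10x) (red) and 10 dCas9-p300(core) (blue) libraries; the dotted line marks equal values. The members stay between 8.45 and 16.3 while the common intervals run from 9.04 to 34.2.

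The difference went with the level of an interval. Over all tested intervals the median difference was 0.29 in the lowest quartile of mean enrichment, 0.07 and -0.05 in the middle quartiles and -0.10 in the highest. The members of the same quartiles had medians of 0.50, 0.38, 0.24 and 0.08, and 375 of the 717 members belonged to the lowest quartile. The part of level in the calls was not tested further. Of the 717 members, 280 could not be tested because at least 1 of the 10 groups had no peak there, which was the case for dCas9-VP16(10x) Pool 2 in 192. Among the 111 members with a value in every library, 30 were called, 26 of them higher and 4 lower, with a median of 0.33. By class, 83 of 345 tested 3' end members, 20 of 74 gene body members and 8 of 18 intergenic members were called higher.

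**Figure D5:**
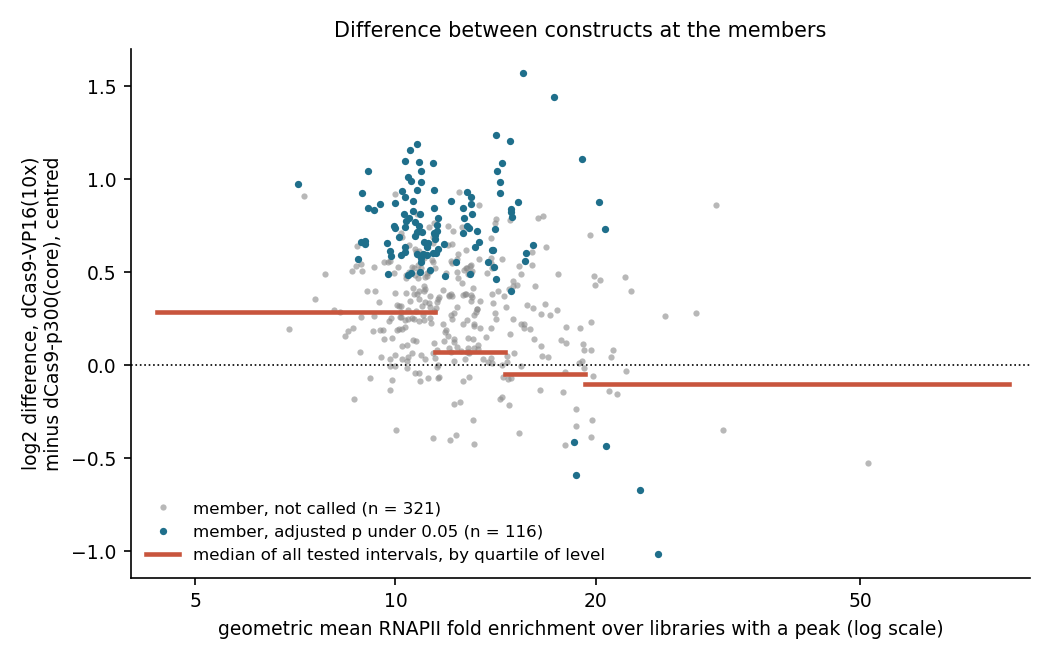
Difference between constructs (log2, dCas9-VP16(10x) minus dCas9-p300(core), centred libraries) against the geometric mean fold enrichment (log scale) of the 437 tested members; blue points are the 116 with an adjusted p under 0.05 and grey points the others. Red lines are the medians of all 12961 tested intervals in each quartile of level, which run from 0.29 to -0.10; most members lie above them.

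The 5 members with the smallest p among those called higher were a gene body site of LSR, which encodes the lipolysis-stimulated lipoprotein receptor, and 3' end sites of DCAF1, TPRA1, CDC37 and NPRL3. LSR had an enrichment of 8.29, 11.7 and 13.9 at the lowest, median and highest of 8 dCas9-VP16(10x) libraries and 7.79, 8.15 and 18.8 in 8 dCas9-p300(core) libraries, and differed by 1.19 ± 0.19 after centring (SE; limma adjusted p = 0.00374). DCAF1, the gene of a substrate receptor of CUL4 ubiquitin ligases, had 7.97, 14.1 and 16.7 in 10 libraries against 5.02, 7.84 and 17.7 in 7, and differed by 1.09 ± 0.19 (limma adjusted p = 0.00423), and its interval also falls in the 3' windows of MANF and RBM15B. For TPRA1 the difference was 1.1 ± 0.18, for CDC37, the gene of an HSP90 co-chaperone for kinases, 0.75 ± 0.14, and for NPRL3, the gene of a subunit of the GATOR1 complex, 0.81 ± 0.15. In all 5 the constructs overlapped on both scales. Without centring, TPRA1 and NPRL3 turned to -0.027 and -0.12, and the differences of LSR (0.12) and CDC37 (0.25) were no longer called.

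The 5 members that were lower in dCas9-VP16(10x) were among the stronger ones. They included the sites near SND1 (-0.67 ± 0.12, limma adjusted p = 0.00415) and near VHLL (-0.43 ± 0.12) and the 3' end sites of OAZ1 and HIF1AN. OAZ1, the gene of ornithine decarboxylase antizyme, had 7.41, 11.5 and 26.2 in 9 dCas9-VP16(10x) libraries and 18.6, 39.8 and 88.4 in 10 dCas9-p300(core) libraries, and differed by -1.01 ± 0.21 (limma adjusted p = 0.00662). HIF1AN site 1, behind the gene of an asparagine hydroxylase of the hypoxia response, had 7.71, 12.2 and 18.6 against 18.8, 32.7 and 40.8, which did not overlap on the deposited scale, and differed by -0.59 ± 0.16. After centring the ranges of the constructs overlapped in all 5.

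Against the IL1RN control of the same construct, no member was called for any gRNA pool. By limma with Benjamini-Hochberg adjustment, 0 of the testable members were called at an adjusted p under 0.05 in each of the 8 comparisons, as were 0 of all intervals (13324 to 14486 tested, 0% called). The smallest limma adjusted p of any member was 0.288, at the gene body member of RPL37A in dCas9-p300(core) Adjacent. At an unadjusted p under 0.05, dCas9-VP16(10x) Pool 1 had 9 of 698 members (all intervals 2.57%), Pool 2 had 6 of 523 (3.37%), Pool 3 had 9 of 661 (4.21%) and Adjacent had 3 of 715 (1.24%). In dCas9-p300(core) the counts were 80 of 699 members in Pool 1 (all intervals 5.05%), 93 of 702 in Pool 2 (5.03%), 71 of 693 in Pool 3 (3.15%) and 141 of 658 in Adjacent (5.01%). These were 11.4%, 13.2%, 10.2% and 21.4% of the tested members, above the share of all intervals in each case, whereas in dCas9-VP16(10x) the shares of members, 0.42% to 1.36%, were below it. The direction was not the same in the 4 dCas9-p300(core) comparisons: 60 of 80 and 58 of 93 such members were higher than in IL1RN in Pools 1 and 2, and 58 of 71 and 90 of 141 were lower in Pool 3 and Adjacent. The 4 comparisons of a construct share its 2 IL1RN libraries.

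In dCas9-p300(core), the members moved with the control pair. Their median shift between the 2 IL1RN libraries was 1.72 on the log2 scale, more than in any other group, and replicate 1 was the library with low enrichment at the common intervals (11.5, against 34.2 in replicate 2). When IL1RN replicate 2 was left out, so that replicate 1 alone stood for the control and was taken to vary like the other groups, 154 members were called in Adjacent and 10 in Pool 3. The next largest shift was 0.76, in dCas9-VP16(10x) Pool 3. The difference between constructs in the effect of a pool was not called for any member in any of 4 interactions, with 39 to 82 members at an unadjusted p under 0.05.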

How the data were processed

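The data were ChIP-seq peak lists from transfected Ishikawa cells, 20 RNAPII, 20 H3K27ac and 7 HA libraries that were grouped by fusion and gRNA pool as labelled. Per the study's methods, the authors aligned single-end reads to hg19 with Bowtie 1.1.2, kept reads that aligned at 1 place, removed duplicates with SAMtools and called peaks in each library with MACS2 2.1.0.20140616, and the control for calling is not given in the sources used here. The deposited lists give each peak a fold enrichment (a ratio to the caller's background) and -log10 p- and q-values. They hold no read counts, so read depth is unknown, and no interval or floor from counts is given. The 47 columns of the deposited expression table were not used.

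Peaks were merged at 1 bp of overlap and placed relative to the lifted hg19 GENCODE 44 annotation. A 3' end lies within 1 kb before to 5 kb after a gene end, otherwise an interval that shares 1 bp with a gene is gene body. The value of an interval in a library is the highest enrichment of its peaks, as log2 minus the median of the library over the intervals present in all 20 lists, and libraries without a peak were left out of the fit of that interval. limma 3.58.1 (R 4.3.3; lmFit and eBayes with trend) fitted 1 mean per fusion and pool across all recurrent intervals, with 2 libraries per group, Benjamini-Hochberg adjustment over all intervals of a contrast and a threshold of 0.05. The fit was tested on simulated data. Nothing in the labels says that the libraries of a group came from separate cultures, so the p-values measure the spread between these libraries, which may be technical. Figures and counts used Python 3.11.15 with pandas 2.3.3. The sequence is that of hg19 in 300 bases around the median summit.

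The members and gene lists were chosen with earlier results of these data known, and the rule used the RNAPII and H3K27ac peak lists, so both marks are described and not tested at the members. Named members are, in each class, the 6 members present in all 20 lists whose mean enrichment was highest (filled by number of lists), up to 5 per direction with the smallest p between constructs, the sites of the 5 genes with the most members, the members nearest to the targeted genes, and those of genes in the lists. In each class, sequences are shown for the first 2 of these 6 outside untranslated regions and chromosome 8. Some items that this rule selects are not reported here. Alternatives were other limits of the rule, other windows, other scaling, missing values set to the lowest of the library, a replicate block and leaving out each library. Replicate numbers were taken as names: over 45 pairs of groups the correlation of same-numbered deviations ran from -0.40 to 0.72, with a median of 0.02, so they do not pair the libraries. The numbers are those given at the end of the labels, and the label of dCas9-p300(core) Pool 3 replicate 2 also carries the number 1 in its library name.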

Additional observations from a re-analysis of the deposited data

Results flagged for a closer look

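Among 158 sets of libraries of 1 construct at a named member, 5 (3.16%) held a library that stood apart from the others of the construct on the centred log2 scale, by the gap to its nearest neighbour; chance alone gives about 1 in 20. The deposited enrichments are given here. At the 3' end of HSPA5, dCas9-VP16(10x) Pool 3 replicate 1 was the highest at 44.1, with the other 9 libraries at 16.6 to 37.3. At the gene body member of RPS24, a ribosomal protein gene, dCas9-p300(core) IL1RN replicate 1 had 14.8 and the others 9.90 to 14.1 (5 libraries in all). At NPRL3, dCas9-p300(core) Pool 2 replicate 1 had 18.5 and the others 8.07 to 11.4. At LSR, dCas9-VP16(10x) Pool 1 replicate 2 was the lowest, at 8.29 against 8.46 to 13.9. At SPACA4, which shares its site with RPL18, dCas9-p300(core) IL1RN replicate 2 was the lowest, at 8.89 against 10.7 to 21.2. The dCas9-p300(core) IL1RN pair accounts for 2 of the 5, and its libraries also differed most in the median of the common intervals (11.5 and 34.2). NPRL3 and LSR are among the members called between constructs. In the 16 fits without 1 library that gave a value, their differences lay between 0.78 and 0.85 and between 1.09 and 1.29 on the log2 scale, but NPRL3 could not be fitted without dCas9-p300(core) Pool 2 replicate 1, the library that stood apart there, since that pool then had no value.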

How the results depend on the processing

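The number of members followed the limits of the rule: 1549 with peaks in at least 10 libraries, 111 with peaks in all 20, 350 over 5 kb from a start and 302 with a -log10 q-value of at least 20, while the other 7 changes of the rule gave 602 to 935 and leaving out 1 library 583 to 763. The share at 3' ends, 73.9%, was 67.9%, 87.4% and 67.4% under the first 3 of these, 77.9% with protein-coding starts only, 68.3% with protein-coding genes only, and 51.7% or 86.1% with a narrower or wider window. HA peaks with a -log10 q-value of at least 20 met 56 members, a count not given for all recurrent intervals. Over whole intervals, AATAAA was present in 57.3% of members, 40.0% of all recurrent intervals and 55.8% of promoters without H3K27ac.

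Between constructs, 116 members were called and 111 were higher in dCas9-VP16(10x). These were 29 and 25 when intervals in all 20 lists alone were fitted, 42 and 33 with a -log10 q-value of at least 20, and 65 and 61 with the dCas9-VP16(10x) IL1RN pair as 1 library. Without centring 3 were higher, and TPRA1 (-0.027) and NPRL3 (-0.12) changed sign. Leaving out 1 library gave 55 to 207 called and 47 to 200 higher, over 1.5 times away from 116 for each library except dCas9-p300(core) Pool 1 replicate 2 and Pool 3 replicate 1 and dCas9-VP16(10x) Adjacent replicate 1, Pool 1 replicate 1, Pool 2 replicate 2 and Pool 3 replicate 2. Fewer libraries or intervals entered these fits, and the cause was not tested further. Chosen after seeing the data, a term for the 3 libraries without an identifier in their peak names gave 129 and leaving them out gave 92.

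With the replicate number as a block, 116 members were called between constructs, 111 higher and 5 lower, and 0 against IL1RN, as without it. Against IL1RN, leaving out 1 library gave 0 to 10 in dCas9-p300(core) Pool 3 and 0 to 154 in Adjacent, both highest without IL1RN replicate 2, and 1 in Adjacent without either Pool 2 library. The other 6 comparisons stayed at 0 under all alternatives. Enrichment at low levels is limited by the depth of the libraries, which the lists do not give.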

Other observations

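The chaperone members differed between the 2 dCas9-p300(core) libraries of Pools 1, 2 and 3, as seen after the values were known. In Pool 1 the DNAJB1 member had an enrichment of 26.5 in replicate 1 and 64.6 in replicate 2, and the HSPA5 member had 16.4 and 52.1. In Pool 2 the values were 40.3 and 78.2 for DNAJB1 and 30.3 and 48.7 for HSPA5. In Pool 3 they were 45.7 and 31.4 for DNAJB1 and 32.0 and 17.4 for HSPA5. At MYL9 site 2 the values were 23.8 and 21.9 in Pool 1 and 36.6 and 19.8 in Pool 2. These libraries carry the same gRNA pool, and the difference was not tested.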
